A study of Mus musculus with 18 samples.

Results

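The genes described here encode the translation initiation factors (eIF), the translation elongation factors (eEF) and the kinases, inhibitors and methyltransferases named after them. Membership was set by symbol, by a rule chosen with earlier results of these data known. It takes in the protein-coding mouse genes whose symbol starts with Eif or Eef followed by a digit, with Eif2s3x and Eif2s3y left out. The choice gave 66 genes of 29456 with at least 1 count. Of these, 64 were abundant enough to be tested, among 16096 genes in all. Eif4e1b, which had 0.0721 CPM (normalised read counts scaled to a common library size) in its highest library, and Eef1akmt3, with 0.212 CPM in its highest library, were too low to test.

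Polyadenylated RNA of TA (tibialis anterior) muscle was sequenced from mice of several cancer cachexia models, taken when tumour bearers had reached endpoint, in 18 libraries that form 9 groups of 2. LLC lung carcinoma cells were injected into muscle of C57BL/6 mice, with PBS-injected controls. KPC cells (50000 per mouse) or KPCML1 cells (1000 per mouse) were injected orthotopically into C57BL/6 mice, and both groups share the same 2 control libraries from mice given Matrigel alone. C26 colon carcinoma cells were injected under the skin of CD2F1 mice, again with PBS controls, and KPP is a genetic model on C57BL/6 in which tamoxifen induces the tumour, with KPP mice without a tumour as controls. The labels name neither the alleles and the Cre driver of the KPP mice, whether their controls received tamoxifen, which muscle took the LLC cells, nor sex or age. C26 is the only model on the CD2F1 strain, so strain and model cannot be told apart. The 2 libraries of a group are called biological replicates, with no word on whether each is 1 animal, and are written below as replicate 1 and replicate 2.

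Translation starts when eIF4E binds the cap of an mRNA and joins the scaffold eIF4G and the helicase eIF4A in the eIF4F complex. The eIF4E-binding proteins compete with eIF4G for eIF4E, and mTORC1 releases that brake by phosphorylating them. The small ribosomal subunit is brought to the mRNA by eIF3, eIF1, eIF1A and the ternary complex of eIF2, GTP and initiator tRNA. The exchange factor eIF2B recharges eIF2, and kinases that phosphorylate eIF2 alpha block that exchange under stress. During elongation eEF1A delivers aminoacyl-tRNA and eEF2 moves the ribosome along. Muscle mass depends on the balance of protein synthesis and breakdown, and eIF4E-BP1 is known as a target of FoxO factors in wasting muscle.

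Each library held between 22546541 and 36673780 fragments assigned to transcripts. Myofibre genes were abundant in every library: the summed level of 14 of 14 myofibre markers ran from 102800 to 215500 CPM, and none was at 0. Mitochondrially encoded transcripts took 14.6% to 22.4% of fragments in the control libraries and 5.94% to 16.9% in the tumour libraries, below each model's own controls. Neutrophil markers (7 listed, 5 tested) summed to 0.541 to 1.91 CPM in controls, where Ly6g, Ngp and Camp were at 0, and to 5.69 to 70.4 CPM in tumour libraries. Fibroblast and tendon markers (10 of 10 tested) summed to 398 to 1117 CPM in controls and to 150 to 548 CPM in tumour libraries. Erythroid markers (7 of 7 tested) summed to 294 to 890 CPM in controls, to 146 to 288 CPM in C26 tumour libraries and to 462 to 6833 CPM in the other tumour libraries. Endothelial markers (6 of 6 tested) summed to 177 to 240.3 CPM in controls and to 90.4 and 102 CPM in KPP tumour libraries, where all 6 were called lower. Adipocyte markers (6 of 6 tested) were called lower for 5 genes in KPP and 4 in C26 and higher for 3 in KPC, 3 in KPCML1 and 1 in LLC. The part of these shifts in the values below was not tested. In bulk muscle, fewer cells of a type and less RNA per cell cannot be told apart.

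Most translation factor genes that changed were higher in tumour-bearing muscle. A gene is called here when its Benjamini-Hochberg adjusted p by edgeR's quasi-likelihood test, adjusted over all genes tested, was under 0.05. In the LLC model 10 members rose and 1 fell, against a background of 7.39% of all genes higher and 6.23% lower (13.6% called). In KPCML1 14 members rose and 0 fell, where 4.16% of all genes were higher and 4.38% lower (8.54% called). KPC muscle had 30 members higher and 2 lower beside 15.3% and 13.7% of all genes (29.1% called). C26 muscle had 25 higher and 1 lower beside 11.5% and 9.8% (21.3% called). KPP muscle had 37 higher and 2 lower beside 17.4% and 19.3% (36.7% called). The share of members called higher was thus above the share of all genes called higher in each of the 5 models, and the share called lower was below it. The median log2 fold change of the 64 members was 0.26 in LLC, 0.27 in KPCML1, 0.51 in KPC, 0.41 in C26 and 0.73 in KPP, while that of all genes lay between -0.04 and 0.04.

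Eif4ebp1, Eef2, Eif3b and Eif4g3 were called higher in all 5 models (6.25% of members tested, 1.32% of all genes), 13 members in 4 models (20.3%, 2.71% of all genes) and 6 members in 3 (9.38%, 4.03% of all genes). At least 1 model called 42 members higher (65.6%, against 27.7% of all genes) and 3 members lower (4.69%, against 28.3%), the latter being Eif4e, Eif2ak2 and Eef1akmt1. In no model were 19 members called (29.7%, against 45% of all genes). With the 5 tumour effects averaged in 1 contrast, 44 members were higher and 2 lower, beside 25.2% and 25.7% of all genes (50.8% called). Eif4e and Eif2ak2 were the 2 lower ones. Over the 10 tumour and 8 control libraries as a whole, 15 members were higher in every tumour library than in any control library (4.95% of all genes), and Eif4e alone among members was lower in every one (4.3% of all genes).

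**Figure D1:**
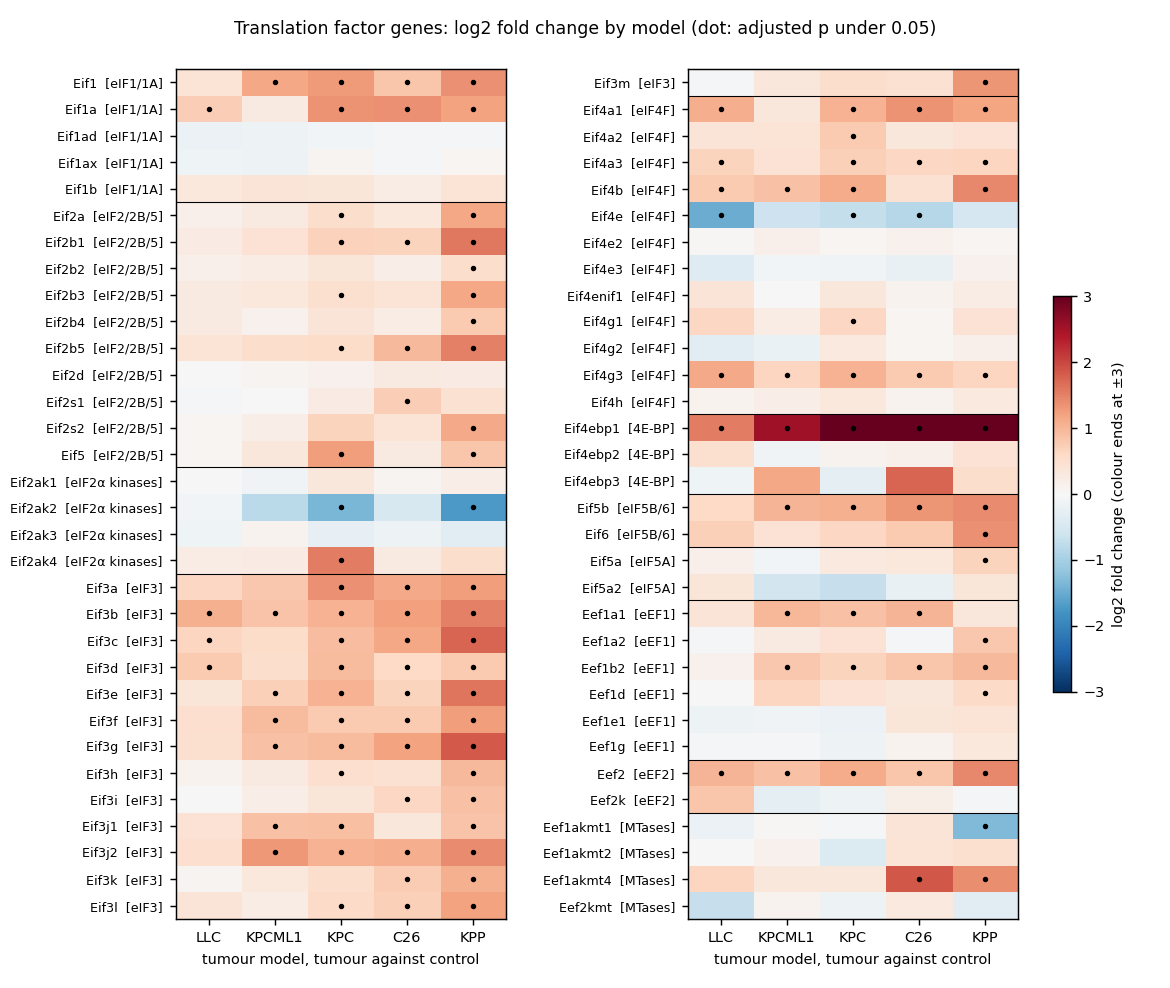
Log2 fold change of the 64 tested members (rows, grouped by role) in the 5 tumour against control comparisons (columns), in colour from blue (lower in tumour) to red (higher), with a dot where the adjusted p was under 0.05. Most dots sit on red cells: 30 higher and 2 lower in KPC, 37 higher and 2 lower in KPP.

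Several of these counts rest on single libraries. The share of all genes called in these fits is not given here. A loss of calls is therefore not shown to be particular to the members. The LLC count of 11 called members was 2 without LLC_control replicate 1, 5 without LLC_control replicate 2 and 3 without LLC_tumor replicate 2. For KPCML1 the 14 became 4 without Matrigel_control replicate 1, 1 without Matrigel_control replicate 2 and 2 without KPCML1_tumor replicate 2. The 32 of KPC became 17 and 12 without Matrigel_control replicates 1 and 2. The 26 of C26 became 10 without C26_control replicate 1 and 11 without C26_tumor replicate 2. The KPP count of 39 lay between 27 and 40 with a library left out. No called member changed direction when a library was left out.

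Eif4ebp1, which encodes the translation inhibitor 4E-BP1 (chromosome 8, 27260329 to 27276674, mm10), had the largest rise of any member in each model. It stood at 35.02 and 42.5 CPM in the LLC controls and at 100.2 and 126 in the LLC tumour libraries. The Matrigel controls held 46.7 and 33.5 CPM, the KPCML1 libraries 149 and 317 and the KPC libraries 438 and 288. In the C26 experiment it went from 43.2 and 45.9 to 315 and 443 CPM, and in the KPP experiment from 46.5 and 61.7 to 956 and 732. No tumour library reached down to a control library, and the KPP libraries were the highest of all. The log2 fold changes were 1.54 ± 0.33 (SE; adjusted p = 0.0083) in LLC, 2.54 ± 0.34 (adjusted p = 0.0012) in KPCML1, 3.18 ± 0.35 (adjusted p = 1.0e-04) in KPC, 3.09 ± 0.35 (adjusted p = 1.2e-04) in C26 and 3.96 ± 0.36 (adjusted p = 3.1e-05) in KPP. The LLC call ended without LLC_control replicate 1 (adjusted p = 0.109) or LLC_tumor replicate 2 (0.0818), and the KPCML1 value was 1.93 without KPCML1_tumor replicate 2.

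The other 2 binding proteins did not pass in any model. Eif4ebp2 lay between 177 and 286 CPM in controls and between 238 and 316 CPM in tumour libraries, with log2 fold changes of -0.11 to 0.47. Eif4ebp3 was near the detection limit, at 0 to 1.61 CPM in controls and 0.54 to 2.39 CPM in tumour libraries. Levels per length are given as TPM (transcript abundance corrected for length). Over all transcripts, Eif4ebp1 made up 39.9% to 62.3% of the summed Eif4ebp TPM in control libraries and 65.1% to 95.2% in tumour libraries, without overlap. Its share is lower over transcripts annotated as protein-coding, which hold all fragments of Eif4ebp2 and Eif4ebp3 but not of Eif4ebp1. In the LLC tumour libraries its protein-coding TPM (42.6 and 65.2) was below the TPM of Eif4ebp2 (58.0 and 66.2). In the KPCML1, KPC, C26 and KPP tumour libraries it was above.

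Eif4e, the gene of the cap-binding protein itself, went the other way (chromosome 3, 138526179 to 138559696). It stood at 140.2 and 125 CPM in the LLC controls and at 53.9 and 41.0 in LLC tumour libraries. The Matrigel controls held 102 and 109 CPM against 70.2 and 66.3 in KPCML1 and 69.3 and 59.8 in KPC. The C26 controls held 100.7 and 113 against 70.5 and 47.0 CPM, and the KPP controls 90.3 and 106 against 75.0 and 64.6. Every tumour library was below every control library. It fell in LLC (log2 fold change -1.48 ± 0.20, adjusted p = 6.4e-04), KPC (-0.71 ± 0.20, adjusted p = 0.018) and C26 (-0.86 ± 0.20, adjusted p = 0.0083) and in the average of the 5 models (-0.83 ± 0.10, adjusted p = 1.0e-05). The values in KPCML1 (-0.63 ± 0.20, adjusted p = 0.067) and KPP (-0.50 ± 0.20, adjusted p = 0.066) did not pass. The KPC call ended without Matrigel_control replicate 2 (adjusted p = 0.0855) or KPC_tumor replicate 2 (adjusted p = 0.0972), and the C26 call without C26_control replicate 2 (adjusted p = 0.0634) or C26_tumor replicate 2 (adjusted p = 0.120).

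**Figure D2:**
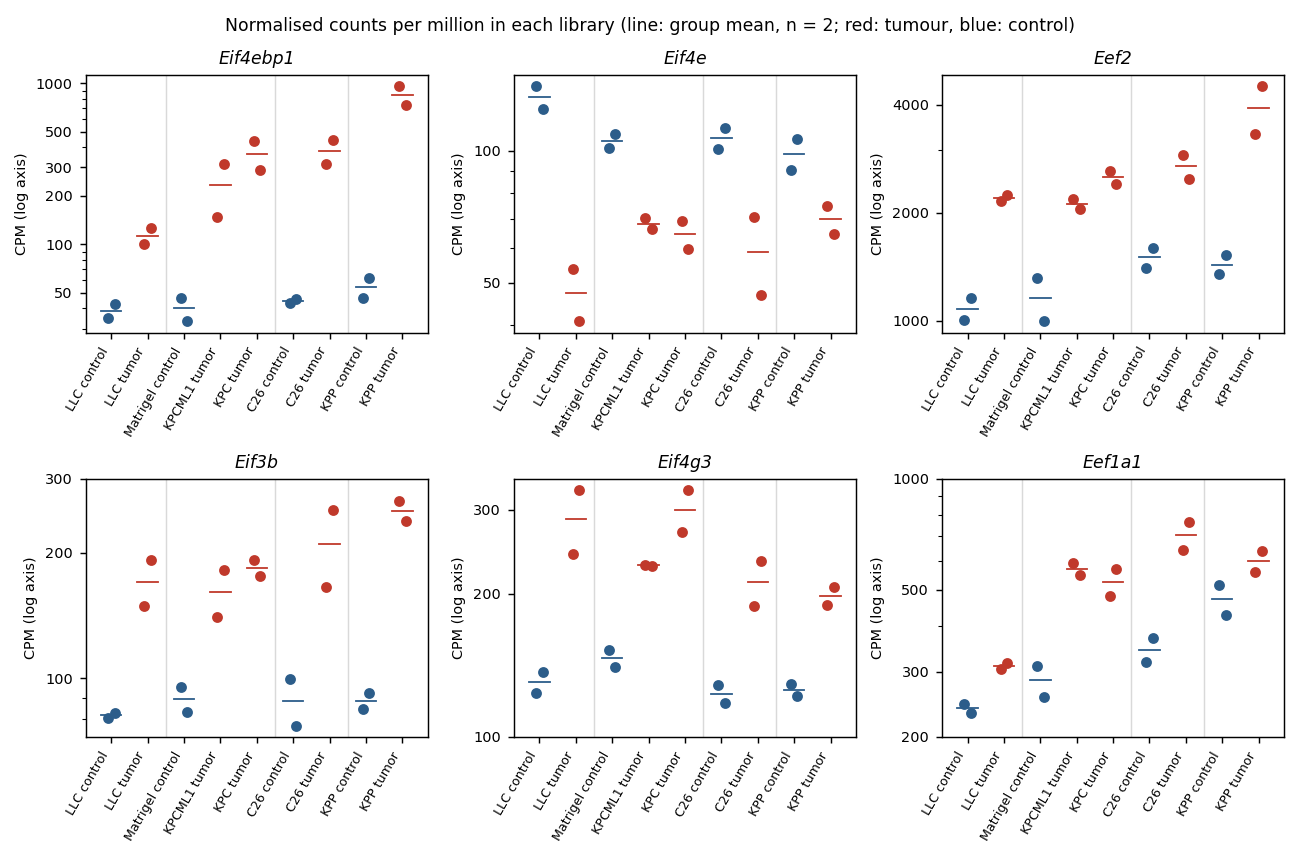
Normalised counts (CPM) of 6 members in each of the 18 libraries (log axis; dots are libraries, lines the mean of the 2 in a group, red for tumour and blue for control). Eif4ebp1, Eef2, Eif3b and Eif4g3 are higher and Eif4e is lower in every tumour library than in any control library, while Eef1a1 overlaps.

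The balance between inhibitor and cap-binding protein can be read within a library as the ratio of their TPM. Over transcripts annotated as protein-coding, the Eif4ebp1 to Eif4e ratio was 0.134 and 0.173 in the LLC controls and 0.803 and 1.55 in the LLC tumour libraries. It was 0.235 and 0.158 in the Matrigel controls, 1.09 and 2.11 in KPCML1 and 2.67 and 2.15 in KPC. In C26 it went from 0.222 and 0.187 to 2.02 and 4.08, and in KPP from 0.281 and 0.293 to 5.54 and 4.83. Every control library was below every tumour library, and LLC_tumor replicate 1 was the tumour library nearest to the controls. Over all transcripts the ratio was 0.198 to 0.489 in controls and 1.66 to 10.8 in tumour libraries. The ratio compares RNA levels and holds no information on the phosphorylation that sets how much 4E-BP1 binds eIF4E. The protein-coding Eif4e TPM of KPP_tumor replicate 2 (61.5) was not below that of KPP_control replicate 2 (60.5), while over all transcripts it was (74.3 against 97.7).

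**Figure D3:**
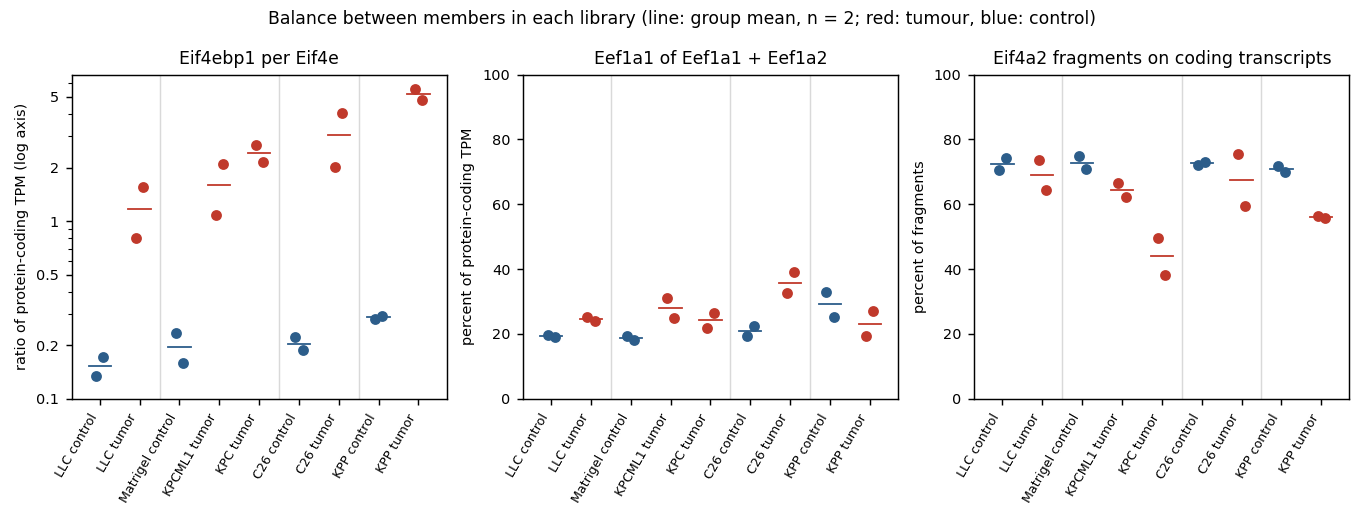
Balance between members in each library (dots; lines are the mean of 2; red tumour, blue control): ratio of protein-coding Eif4ebp1 to Eif4e TPM on a log axis, Eef1a1 as a percent of Eef1a1 plus Eef1a2, and the percent of Eif4a2 fragments on protein-coding transcripts. The ratio is 0.134 to 0.293 in controls and 0.803 to 5.54 in tumours, and the Eif4a2 share is lowest in KPC, at 49.7% and 38.2%.

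The other cap-binding paralogues changed little. Eif4e2, whose product binds caps but supports repression, lay between 51.0 and 68.9 CPM in all libraries, and Eif4e3 between 29.0 and 43.9 CPM. Neither passed in any model, and the largest shift was that of Eif4e3 in LLC (-0.38 ± 0.14, adjusted p = 0.098). Eif4enif1, which encodes the eIF4E transporter, was also called in none.

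Among the scaffolds, Eif4g3 rose in all 5 models. It stood at 118 to 152.5 CPM over the 8 controls, at 242 and 331 in LLC, 229.7 and 229 in KPCML1, 269 and 331 in KPC, 188 and 234 in C26 and 189 and 207 in KPP. The lowest tumour library was thus above the highest control. The log2 fold changes ran from 0.65 ± 0.18 in KPCML1 (adjusted p = 0.040) to 1.14 ± 0.18 in LLC (adjusted p = 0.0014). The KPCML1 call ended without any 1 of its 4 libraries (adjusted p = 0.0965 to 0.284), the C26 call without either control or C26_tumor replicate 2 (0.0547 to 0.103) and the KPP call without either KPP control (0.0511 and 0.0577). Eif4g1, the main eIF4G gene, at 426.5 to 589.6 CPM in controls, rose in KPC (0.61 ± 0.21, adjusted p = 0.041) to 781 and 923 CPM from 588 and 525. That call ended without either Matrigel control (0.126 and 0.259) or KPC_tumor replicate 2 (0.288). Eif4g2, whose product lacks the eIF4E-binding region, was called in none.

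The helicase gene Eif4a1 and the helper gene Eif4b rose in 4 models each. Eif4a1 stood at 84.1 to 108 CPM over the 8 controls and at 169 and 207 in LLC, 104 and 135 in KPCML1, 149 and 242 in KPC, 167 and 269.8 in C26 and 220.5 and 216.5 in KPP. It rose in LLC (1.09 ± 0.25, adjusted p = 0.012), KPC (1.04 ± 0.25, adjusted p = 0.0076), C26 (1.35 ± 0.25, adjusted p = 0.0025) and KPP (1.17 ± 0.25, adjusted p = 0.0028). In KPCML1 the value was 0.34 ± 0.25 (adjusted p = 0.44), and KPCML1_tumor replicate 1 lay within the range of the 8 controls. The LLC and KPC calls held in 1 of the 4 sets with a library left out (adjusted p = 0.0773 to 0.123 and 0.053 to 0.140 in the others), ending without either control or tumour replicate 2. Eif4b, a cofactor of eIF4A, went from 197 to 294 CPM in controls to 328 to 823 CPM in tumour libraries and rose in 4 models, by 1.12 ± 0.19 in KPC and 1.44 ± 0.19 in KPP. Its LLC call (0.79 ± 0.19) ended without LLC_control replicate 1 (adjusted p = 0.157) or LLC_tumor replicate 2 (0.0745), and its KPCML1 call (0.87 ± 0.19) without Matrigel_control replicate 2 (0.175) or KPCML1_tumor replicate 2 (0.0732). Eif4a3, a helicase of the exon junction complex, was called higher in the same 4 models as Eif4a1, by 0.62 to 0.70. Each of those calls of Eif4a3 ended without at least 2 of its 4 libraries: any library in LLC (adjusted p = 0.0591 to 0.244), either Matrigel control or KPC_tumor replicate 2 in KPC (0.0587 to 0.184), either control or C26_tumor replicate 2 in C26 (0.102 to 0.373), and KPP_control replicate 1 (0.127) or KPP_tumor replicate 2 (0.066) in KPP.

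Eif4a2, the more abundant eIF4A gene of this muscle, was called higher in KPC only (0.79 ± 0.23, adjusted p = 0.021), a call that was lost over protein-coding transcripts. Its fragments lay on protein-coding transcripts for 70.1% to 74.8% in all 8 control libraries. That share was 73.5% and 64.3% in LLC, 66.5% and 62.3% in KPCML1, 49.7% and 38.2% in KPC, 75.5% and 59.4% in C26 and 56.4% and 55.8% in KPP. Both libraries of KPC, KPP and KPCML1 were below every control, as were LLC_tumor replicate 2 and C26_tumor replicate 2, and C26_tumor replicate 1 was above them. In KPC the coding transcript Eif4a2-201 held 9.32% of the gene's fragments against 42.3% in the Matrigel controls, while the nonsense-mediated decay transcripts Eif4a2-210 (21.4% against 9.81%) and Eif4a2-204 (21.5% against 5.28%) held more. Counted over protein-coding transcripts alone, the KPC call was lost (adjusted p = 0.965). It also ended without either Matrigel control (0.0966 and 0.139) or KPC_tumor replicate 2 (0.303). These transcript shares are Salmon's split of shared sequence and carry no test here.

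The 14 genes of eIF3, the largest initiation factor and the scaffold of the small-subunit complex, held rises and no falls. In LLC 3 of 14 were called higher, in KPCML1 6, in KPC 11, in C26 11 and in KPP 14, and 0 were called lower in any model. Of all genes, 7.39%, 4.16%, 15.3%, 11.5% and 17.4% were called higher in these models. The shares of all genes called lower were 6.23%, 4.38%, 13.7%, 9.8% and 19.3%. The median log2 fold change of the 14 was 0.45, 0.63, 0.90, 0.74 and 1.25 in that order. With the 5 effects averaged, 14 of 14 passed, by 0.42 to 1.14, beside 25.2% of all genes called higher. No eIF3 gene passed the test of differences among the models, which 8.3% of all genes passed.

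**Figure D4:**
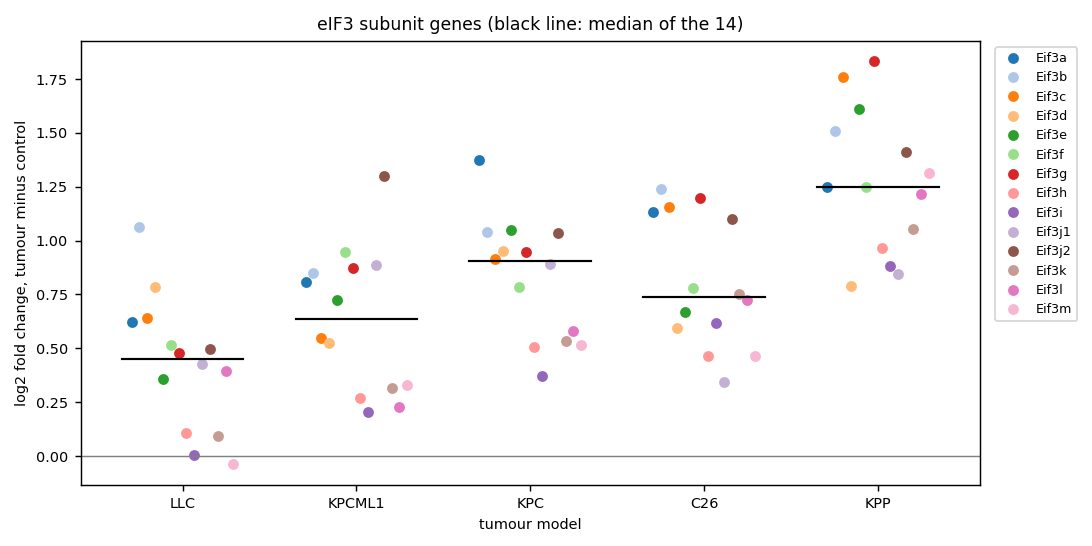
Log2 fold change (tumour minus control) of the 14 eIF3 genes in each model, with the median as a black line. The medians run from 0.45 in LLC to 1.25 in KPP, and 1 gene, Eif3m in LLC, lies below 0.

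Eif3b, whose product binds those of Eif3g and Eif3i, was called in all 5 models. Its controls held 80.5 and 82.8 CPM in LLC, 95.4 and 83.1 with Matrigel, 99.9 and 77.2 in C26 and 84.4 and 92.5 in KPP. The tumour libraries held 149 and 192 CPM in LLC, 140.2 and 181 in KPCML1, 192 and 176 in KPC, 166 and 253 in C26 and 266 and 237 in KPP. No tumour library overlapped a control, and KPP had the highest level. The log2 fold changes were 1.06 ± 0.22, 0.85 ± 0.22, 1.04 ± 0.22, 1.24 ± 0.22 and 1.51 ± 0.22 (adjusted p = 0.0064, 0.029, 0.0036, 0.0017 and 2.5e-04). The LLC call ended without either control or LLC_tumor replicate 2 (adjusted p = 0.0538 to 0.0871), the KPCML1 call without either Matrigel control or KPCML1_tumor replicate 2 (0.104 to 0.247) and the KPC call without Matrigel_control replicate 2 (0.0552).

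Eif3f, whose product has been studied as a regulator of muscle size and a target of the ubiquitin ligase MAFbx, rose in 4 models. It stood at 112 to 137 CPM over the 8 controls, at 159.8 and 169 in LLC, 183 and 259.6 in KPCML1, 218 and 176 in KPC, 216 and 237 in C26 and 296 and 283 in KPP. The tumour libraries were all above the controls, with LLC the lowest. The log2 fold change was 0.95 ± 0.17 in KPCML1, 0.78 ± 0.17 in KPC, 0.78 ± 0.17 in C26 and 1.25 ± 0.17 in KPP, and in LLC it was 0.52 ± 0.17 (adjusted p = 0.063). The KPCML1 call ended without either Matrigel control or KPCML1_tumor replicate 2 (adjusted p = 0.054 to 0.080) and the C26 call without C26_control replicate 1 (0.0738) or C26_tumor replicate 2 (0.0639).

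Eif3g and Eif3c had the largest eIF3 values, in the KPP model. Eif3g, an RNA-binding subunit, went from 49.0 and 66.9 to 244 and 169 CPM there (1.83 ± 0.23, adjusted p = 1.1e-04). Eif3c, a scaffold subunit, went from 125 and 172 to 439 and 563 CPM (1.76 ± 0.20, adjusted p = 7.4e-05). In C26 Eif3c rose from 122 and 99.9 to 219 and 276 CPM (1.16 ± 0.20, adjusted p = 0.0015) and Eif3g from 54.1 and 51.4 to 109 and 134 CPM (adjusted p = 0.0027). The LLC call of Eif3c (0.64 ± 0.20, adjusted p = 0.046) ended without any 1 of its 4 libraries (adjusted p = 0.0545 to 0.294). The smallest eIF3 values in KPP were those of Eif3d (0.79) and Eif3j1 (0.84).

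Eif3j1 and Eif3j2 are near-identical copies, so the split of fragments between them is uncertain. Salmon gave Eif3j2 78.5 and 80.6 CPM with Matrigel and 166 and 225 in KPCML1 (1.30 ± 0.23, adjusted p = 0.0058), and Eif3j1 rose there too (0.89 ± 0.24). Both calls ended without either Matrigel control or KPCML1_tumor replicate 2 (adjusted p = 0.0541 to 0.0752 for Eif3j2 and 0.125 to 0.279 for Eif3j1). Their summed TPM was 52.8 to 78.5 in controls and 108 to 226 in tumour libraries, without overlap. TPM is not rescaled between libraries, and part of that gap can come from the scale. Relative to TMM-scaled CPM, it raised the median log2 change of all genes by 0.019 in KPC and by 0.44 in LLC and C26.

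The number of eIF3 calls depends on single libraries in every model, and least in KPP. Of the 3 calls in LLC, 0 held without either control or LLC_tumor replicate 2. Of the 6 in KPCML1, 0 held without either Matrigel control or KPCML1_tumor replicate 2. Of the 11 in KPC, 6 and 4 held without Matrigel_control replicates 1 and 2. Of the 11 in C26, 3 held without C26_control replicate 1, 7 without C26_control replicate 2 and 4 without C26_tumor replicate 2. Of the 14 in KPP, 10 or more held in each case.

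Of the factors that choose the start codon, Eif1 and Eif1a were called higher. Eif1, whose product guards against wrong start sites, had 519 to 710.3 CPM in controls and 706 to 1980 CPM in tumour libraries. It was called higher in KPCML1 (1.16 ± 0.26), KPC (1.27 ± 0.26), C26 (0.82 ± 0.25) and KPP (1.37 ± 0.26). The KPCML1 call of Eif1 ended without either Matrigel control or KPCML1_tumor replicate 2 (adjusted p = 0.101 to 0.179) and its C26 call without any 1 of the 4 libraries (0.0576 to 0.202). Its paralogue Eif1b passed in no single model, with values of 0.23 to 0.41, and passed in the average of the 5 (0.34 ± 0.09, adjusted p = 0.0051). The difference between the paralogues was not tested. Eif1a stood at 8.45 and 9.99 CPM in the LLC controls, 11.3 and 9.14 with Matrigel, 9.19 and 11.2 in C26 controls and 10.1 and 11.5 in KPP controls. The tumour libraries held 15.8 and 15.2 CPM in LLC, 11.6 and 13.1 in KPCML1, 23.7 and 28.3 in KPC, 24.4 and 28.5 in C26 and 20.9 and 29.1 in KPP. The KPCML1 libraries were the tumour libraries closest to control. It rose in LLC (0.75 ± 0.20, adjusted p = 0.026), KPC (1.35 ± 0.20, adjusted p = 5.7e-04), C26 (1.37 ± 0.20, adjusted p = 6.2e-04) and KPP (1.22 ± 0.20, adjusted p = 5.7e-04) but not in KPCML1 (0.27 ± 0.20, adjusted p = 0.44). The LLC call ended without any 1 of its 4 libraries (adjusted p = 0.0769 to 0.227). Eif1ax, the X-linked and more abundant eIF1A gene, lay between 83.4 and 117 CPM everywhere and was called in none, so that Eif1a made up 7.36% to 11.7% of the 2 genes' summed TPM in controls and 10.1% to 21.2% in tumour libraries.

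A group of 10 genes holds eIF2, eIF2B, eIF5 and the alternative tRNA carriers Eif2a and Eif2d. Of these, 0 were called in LLC and KPCML1, 5 rose in KPC, 3 in C26 and 8 in KPP, and 0 fell. All genes called higher were 7.39% in LLC, 4.16% in KPCML1, 15.3% in KPC, 11.5% in C26 and 17.4% in KPP. The shares of all genes called lower were 6.23%, 4.38%, 13.7%, 9.8% and 19.3%. Eif2s1, which encodes the eIF2 alpha subunit phosphorylated under stress, rose in C26 only, from 30.3 and 36.9 to 55.4 and 56.6 CPM (0.74 ± 0.17, adjusted p = 0.0091). That call ended without C26_control replicate 1 (adjusted p = 0.122) or C26_tumor replicate 2 (adjusted p = 0.0676). Eif2s2, the beta subunit, rose in KPP (1.15 ± 0.25), a call that ended without KPP_control replicate 1 (adjusted p = 0.0525). Of the 5 KPC calls, 1 held without either Matrigel control and 3 without either KPC tumour library, and of the 8 KPP calls 5 held without KPP_control replicate 1. Of the 3 C26 calls, 1 held without C26_control replicate 1 or C26_tumor replicate 2.

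All 5 subunit genes of the exchange factor eIF2B rose in KPP. The calls of Eif2b2 and Eif2b4 there ended without KPP_control replicate 1 (adjusted p = 0.173 and 0.140) or KPP_tumor replicate 1 (0.0722 and 0.277, with Eif2b4 at 0.31 in place of 0.80). Eif2b5, the catalytic epsilon subunit, went from 48.0 and 58.1 to 152 and 150.3 CPM there (1.51 ± 0.18, adjusted p = 8.9e-05) and from 47.4 and 45.4 to 79.2 and 104 CPM in C26 (0.98 ± 0.18, adjusted p = 0.0022). In KPC it rose from 56.2 and 56.3 to 94.4 and 71.2 CPM (0.56 ± 0.18, adjusted p = 0.030), a call that ended without either Matrigel control or KPC_tumor replicate 1 (adjusted p = 0.140 to 0.152). Its tumour libraries were all above its controls. Eif2b1, the alpha subunit, stood at 31.8 to 43.0 CPM over the 8 controls, at 46.9 and 45.6 in LLC, 40.1 and 58.3 in KPCML1, 63.8 and 53.5 in KPC, 51.8 and 52.4 in C26 and 114 and 114 in KPP. The KPP libraries stood apart from the other tumour libraries, at 1.59 ± 0.19 (adjusted p = 8.4e-05) against 0.25 to 0.70 in the other 4 models. The C26 call of Eif2b1 (0.66 ± 0.18) ended without any 1 of its 4 libraries (adjusted p = 0.0563 to 0.145) and the KPC call (0.70 ± 0.18) without either Matrigel control (0.0943 and 0.0711).

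Eif5, which encodes the factor that triggers GTP hydrolysis by eIF2 at the start codon, rose in KPC and KPP. Its controls held 174 to 221 CPM. The tumour libraries held 227 and 213 in LLC, 226 and 255 in KPCML1, 437 and 473 in KPC, 213 and 253 in C26 and 396 and 303 in KPP. The KPC libraries were the highest, and LLC_tumor replicate 2 and C26_tumor replicate 1 lay within the control range. The log2 fold change was 1.25 ± 0.18 in KPC (adjusted p = 3.9e-04) and 0.84 ± 0.17 in KPP (adjusted p = 0.0023), against 0.07 to 0.33 in the other 3.

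The 4 kinases of eIF2 alpha did not move together. Eif2ak2, the double-stranded RNA sensor PKR, stood at 5.01 and 4.77 CPM in the LLC controls, 4.99 and 5.01 with Matrigel, 6.13 and 6.75 in C26 controls and 6.58 and 5.09 in KPP controls. Tumour libraries held 5.09 and 4.199 CPM in LLC, 3.36 and 2.32 in KPCML1, 1.65 and 2.202 in KPC, 5.21 and 4.03 in C26 and 1.77 and 1.76 in KPP. The KPC and KPP libraries were the lowest, and LLC overlapped its controls. It fell in KPC (-1.38 ± 0.26, adjusted p = 0.0019) and KPP (-1.73 ± 0.26, adjusted p = 3.1e-04), and the KPCML1 value was -0.81 ± 0.25 (adjusted p = 0.060). The KPC call was lost with counts scaled by transcript length (-0.78, adjusted p = 0.115). Eif2ak4, the amino acid sensor GCN2, was called higher in KPC (1.54 ± 0.38, adjusted p = 0.0087), where 1 library held 25.0 CPM and the other 8.04 against 6.58 and 4.74 in controls. Without the high library, KPC_tumor replicate 2, its value was 0.45 (adjusted p = 0.272), without KPC_tumor replicate 1 it was 2.202, and without Matrigel_control replicate 2 the call ended (adjusted p = 0.101). Eif2ak1, the haem-regulated kinase HRI, and Eif2ak3, the endoplasmic reticulum kinase PERK at 2.80 to 5.01 CPM, were called in none.

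Joining of the ribosomal subunits is run by eIF5B and held back by eIF6. Eif5b had 109 to 197 CPM in controls and 206 to 472 CPM in tumour libraries, without overlap. It rose in KPCML1 (1.03 ± 0.28), KPC (1.06 ± 0.28), C26 (1.32 ± 0.28) and KPP (1.43 ± 0.28). Only 41.8% to 56.8% of its fragments lay on protein-coding transcripts. Counted over these alone, the KPCML1 call was lost (adjusted p = 0.0698). The Eif5b call ended without either Matrigel control in KPCML1 (adjusted p = 0.134 and 0.253) and KPC (0.0573 and 0.102), without KPCML1_tumor replicate 2 (0.244) and, in C26, without C26_control replicate 1 (0.0542) or C26_tumor replicate 2 (0.0776). Eif6 stood at 34.9 to 41.1 CPM in controls, at 37 and 61.7 in KPCML1 and at 116 and 81.1 in KPP, where it rose by 1.38 ± 0.29 (adjusted p = 0.0025). Its values in the other 4 models were 0.42 to 0.80 and did not pass. Eif5a, whose hypusine-bearing product helps ribosomes through difficult peptide bonds, rose in KPP from 295 and 347 to 558 and 462 CPM (0.67 ± 0.18, adjusted p = 0.0097), a call that ended without KPP_control replicate 1 (adjusted p = 0.0961) or KPP_tumor replicate 1 (adjusted p = 0.0658). Eif5a2 was low, at 0.552 to 2.07 CPM, and called in none.

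Eef2, the translocase gene and 1 of the 3 members with the highest median TPM, rose in all 5 models. It stood at 1006 and 1155 CPM in the LLC controls and 2163 and 2236 in the LLC tumour libraries. The Matrigel controls held 1317 and 999.6 CPM against 2183 and 2054 in KPCML1 and 2614 and 2409 in KPC. In C26 it went from 1407 and 1600 to 2899 and 2487 CPM and in KPP from 1346 and 1524 to 3325 and 4508. The lowest tumour library was above the highest control, and KPP was again highest. The log2 fold changes were 1.02 ± 0.20 in LLC (adjusted p = 0.0048), 0.87 ± 0.20 in KPCML1 (adjusted p = 0.018), 1.12 ± 0.20 in KPC (adjusted p = 0.0015), 0.84 ± 0.20 in C26 (adjusted p = 0.0092) and 1.45 ± 0.20 in KPP (adjusted p = 1.9e-04). The call ended without LLC_control replicate 1 in LLC (adjusted p = 0.0749), without C26_control replicate 1 in C26 (0.0939) and without Matrigel_control replicate 2 or either KPCML1 tumour library in KPCML1 (0.0522 to 0.203). Eef2k, the kinase that inactivates eEF2, lay between 42.7 and 129 CPM and was called in none, with its largest value in LLC (0.84 ± 0.28, adjusted p = 0.066).

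Promoter letters are shown for Eef2, Eif3f and Eif4a1, 3 members called higher in 4 or 5 models whose promoter holds an E-box, CACGTG, the palindrome bound by MYC and related factors. RefSeq windows (GRCm38.p6) were matched by symbol for 50 of the 66 members, in 65 windows, and 250 bases before each start were searched. Eif4ebp1 has no window. Eif4e, which fell, was picked as well, but its windows overlap an annotated untranslated region and are not printed. Its E-boxes lie in the window chr3:138527018-138527267, and the window chr3:138525941-138526190 has none. Each run reads 5′ to 3′ on the gene's strand up to the base before its RefSeq start, with the E-box in capitals. It begins 43 bases before the start of Eef2 (chr10:81176381-81176630, plus strand), 68 before that of Eif3f (chr7:108934165-108934414, plus strand) and 189 before that of Eif4a1 (chr11:69672424-69672673, minus strand).
Eef2: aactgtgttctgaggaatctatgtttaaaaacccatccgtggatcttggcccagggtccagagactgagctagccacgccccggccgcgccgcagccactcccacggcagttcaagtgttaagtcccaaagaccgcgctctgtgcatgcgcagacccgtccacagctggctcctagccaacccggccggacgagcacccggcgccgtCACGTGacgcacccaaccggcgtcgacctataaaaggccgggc
Eif3f: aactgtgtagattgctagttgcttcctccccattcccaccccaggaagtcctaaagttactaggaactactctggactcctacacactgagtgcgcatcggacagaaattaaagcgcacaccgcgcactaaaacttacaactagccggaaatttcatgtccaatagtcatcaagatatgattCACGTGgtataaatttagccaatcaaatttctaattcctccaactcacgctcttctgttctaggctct
Eif4a1: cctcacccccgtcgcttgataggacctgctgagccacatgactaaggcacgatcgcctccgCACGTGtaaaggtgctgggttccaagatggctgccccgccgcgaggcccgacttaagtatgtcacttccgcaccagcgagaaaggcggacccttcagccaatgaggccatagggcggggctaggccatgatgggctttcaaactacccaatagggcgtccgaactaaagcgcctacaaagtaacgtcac

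The E-box stood in 14 of the 65 member windows (21.5%) and in 6.02% of all 32851 windows of that length. Of the 12 members that hold one, Eef2, Eif3f and Eif4a1 were called higher in 4 or 5 models. That is near the share of all members tested, 6.25% in all 5 models and 20.3% in 4 (1.32% and 2.71% of all genes). Eef1akmt4 and Eif3k rose in 2 and Eif4g1 and Eif5a in 1. Eef2k, Eif1b, Eif4h and Eif5a2 were called in none, and Eif4e fell in 3. The other members called higher in 4 or 5 models held no E-box or had no window. The element TGATGNAA (TTNCATCA on the other strand), bound by ATF4 with C/EBP partners, was in 1 member window (1.54%), that of Eef2k, and in 3.45% of all windows. The FoxO element GTAAACA, which reads TGTTTAC on the other strand, was in 0 member windows and in 3.17% of all. A match describes letters, not binding, and a window without one says only that these letters are not in it.

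The eEF1 genes, among them those whose products deliver aminoacyl-tRNA and recharge eEF1A, changed unevenly. Eef1a1, the form of most tissues, stood at 245 and 233 CPM in the LLC controls and 305 and 317 in LLC tumour libraries. With Matrigel it was 312 and 257 CPM, in KPCML1 590.0 and 549 and in KPC 482 and 570.1 CPM. The C26 libraries went from 318 and 371 to 641 and 765 CPM and the KPP libraries from 516 and 428 to 560 and 636. The KPP controls overlapped tumour libraries of other models. Eef1a1 rose in KPCML1 (1.00 ± 0.17, adjusted p = 0.0050), KPC (0.89 ± 0.17, adjusted p = 0.0027) and C26 (1.03 ± 0.18, adjusted p = 0.0015), and not in LLC (0.38 ± 0.17, adjusted p = 0.17) or KPP (0.34 ± 0.17, adjusted p = 0.14). Without Matrigel_control replicate 2 the KPCML1 (adjusted p = 0.0921) and KPC (adjusted p = 0.0541) calls ended. Its many processed pseudogenes make its count uncertain.

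Eef1a2, the form that replaces Eef1a1 in adult muscle and nerve, rose in KPP only, from 1241 and 1499 to 2755 and 2016 CPM (0.80 ± 0.19, adjusted p = 0.0056). That call ended without KPP_control replicate 1 (adjusted p = 0.0662) or KPP_tumor replicate 1 (adjusted p = 0.0585). Over protein-coding transcripts, Eef1a1 held 18.3% to 22.4% of the summed TPM of both genes in the controls of LLC, Matrigel and C26. It held 25.2% and 24.1% in LLC, 31.1% and 25.0% in KPCML1, 21.8% and 26.6% in KPC and 32.5% and 39.0% in C26 tumour libraries. Each of these 8 libraries was above its own controls. KPP differed in its controls, at 33.0% and 25.3%, and its tumour libraries held 19.3% and 27.1%. Of the other eEF1 genes, Eef1b2 rose in 4 models (0.67 to 0.98) and Eef1d in KPP (0.58 ± 0.21), while Eef1g and Eef1e1 were called in none. For Eef1b2, 52.2% to 63.3% of fragments lay on protein-coding transcripts. Counted over these alone, its KPCML1 (adjusted p = 0.0655) and KPC (adjusted p = 0.0521) calls were lost. The Eef1b2 call ended without either Matrigel control in KPCML1 (adjusted p = 0.176 and 0.152) and KPC (0.171 and 0.0983), without KPCML1_tumor replicate 2 (0.271) or KPC_tumor replicate 1 (0.106), and in C26 without C26_control replicate 1 (0.116) or C26_tumor replicate 2 (0.0974). The Eef1d call ended without KPP_control replicate 1 (0.311) or KPP_tumor replicate 1 (0.420).

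Among the methyltransferases of elongation factors, Eef1akmt4 rose in C26, from 2.16 and 2.55 to 7.02 and 10.1 CPM (1.86 ± 0.28, adjusted p = 6.7e-04), and in KPP, from 2.69 and 3.40 to 8.17 and 7.81 CPM (1.397 ± 0.28, adjusted p = 0.0017). Both calls held with each library left out. Eef1akmt1 fell in KPP, from 14.7 and 19.3 to 9.12 and 4.51 CPM (-1.32 ± 0.36, adjusted p = 0.011). That call ended without KPP_control replicate 2 (adjusted p = 0.0724) or KPP_tumor replicate 2 (adjusted p = 0.126), and without KPP_tumor replicate 1 the value was -1.91. Eef1akmt2 and Eef2kmt were called in none.

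A joint test asked whether the 5 tumour effects differed from one another, as a call in 1 model and not in another does not show a difference. It was passed by 5 members, with 8.3% of all genes passing: Eif5 (adjusted p = 0.0158), Eif1a (adjusted p = 0.0266), Eif2b1 (adjusted p = 0.0315), Eif4ebp1 (adjusted p = 0.0325) and Eif2ak2 (adjusted p = 0.0364). Eif5 had its largest effect in KPC, Eif2b1 and Eif4ebp1 in KPP, Eif1a its smallest in KPCML1 and Eif2ak2 its smallest in LLC. The count was 1 without either LLC control, either LLC tumour library or C26_control replicate 1. It was 2 without C26_control replicate 2 or KPP_control replicate 1, and 3 without Matrigel_control replicate 2 or KPCML1_tumor replicate 1. It was 8 without KPC_tumor replicate 2 or C26_tumor replicate 1, 10 without KPP_control replicate 2 and 15 without KPC_tumor replicate 1.

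Compared with each other directly, KPC and KPCML1 muscle differed in 2 members, with 5.99% of all genes called (2.94% higher in KPC, 3.05% lower). Eif1a (1.07 ± 0.20, adjusted p = 0.014) and Eif5 (0.92 ± 0.17, adjusted p = 0.015) were higher in KPC, and no member was lower. This count was 0 without either KPCML1 tumour library or KPC_tumor replicate 2 and 4 without KPC_tumor replicate 1. The groups differ in the cell line and in the number of cells injected, which cannot be told apart.

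Genes of the wider translation pathway were read from lists set by function. Unlike those of the members, their calls were not followed with a library left out. Of 34 genes of mTORC1 and its regulators, 6 rose and 0 fell in LLC, 2 and 3 in KPCML1, 5 and 5 in KPC, 6 and 4 in C26 and 8 and 7 in KPP. In KPC both counts are near the shares of all genes (15.3% higher and 13.7% lower), and in KPCML1 the 2 higher are near the share of 4.16%. The 7 lower in KPP and the 4 lower in C26 are also near the shares of all genes called lower (19.3% and 9.8%). The counts of the other lists below are likewise to be read against the shares of all genes given for each model, and small lists allow little comparison. Ddit4, which encodes the mTORC1 inhibitor REDD1, rose in all 5 models, by 3.83, 3.33, 4.26, 2.68 and 3.96 in LLC, KPCML1, KPC, C26 and KPP. Sesn1, whose product restrains mTORC1, rose by 3.90, 5.04, 3.09 and 4.10 in the last 4 and had 0.53 in LLC. The kinase gene Mtor rose in LLC (0.90), KPC (1.12), C26 (1.43) and KPP (1.42), and Sesn3 fell in the 4 models other than LLC (-0.95, -0.94, -1.02 and -1.08).

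Of 9 effectors of mTORC1 and of the MNK kinases, 3, 1, 3, 2 and 4 rose and 0, 0, 0, 1 and 2 fell, in the order LLC, KPCML1, KPC, C26, KPP. Mknk2, a kinase that phosphorylates eIF4E, rose in LLC (2.44), KPC (1.505), C26 (2.46) and KPP (2.01). Rps6 rose in KPCML1 (0.87), KPC (0.89), C26 (0.85) and KPP (1.35). Larp1, a repressor of ribosomal protein mRNAs, rose in LLC (1.21), KPC (1.00) and KPP (0.82). Of 16 cap, poly(A) tail and initiation partners, 1, 0, 8, 5 and 8 rose and 0, 0, 1, 0 and 2 fell. Dhx29 rose in LLC (0.58), KPC (0.51), C26 (0.92) and KPP (0.83), and Abce1 in KPC (0.80), C26 (0.65) and KPP (1.04). Gigyf2, which encodes a partner of the repressive cap-binding protein 4EHP, rose in KPC (0.88), C26 (0.57) and KPP (0.58). Of 6 termination and recycling genes, 1, 0, 2, 2 and 3 rose and 0 fell. Abce1 is counted both in this list and among the initiation partners. The release factor gene Etf1 rose in KPC (0.81), C26 (1.008) and KPP (1.24).

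A list of 9 genes held Mettl13 and those for the hypusine and diphthamide modifications of eIF5A and eEF2. Of these, 0, 0, 0, 1 and 1 rose and 0 fell, the riser being the deoxyhypusine synthase gene Dhps in C26 (0.91) and KPP (1.34). Of 9 genes of the response to eIF2 phosphorylation, 7 were tested, of which 2, 1, 4, 2 and 4 rose and 1, 0, 0, 0 and 1 fell. Ppp1r15a, which encodes the stress-induced eIF2 alpha phosphatase subunit GADD34, rose in all 5 models (1.57, 1.26, 3.48, 1.16 and 2.14). Atf4, whose mRNA is translated when eIF2 is phosphorylated, rose in KPC (1.53) and KPP (1.03). Impact, an inhibitor of GCN2, rose in LLC (1.34 ± 0.41, adjusted p = 0.044), KPC (1.16 ± 0.41, adjusted p = 0.046), C26 (1.28 ± 0.41, adjusted p = 0.040) and KPP (1.73 ± 0.41, adjusted p = 0.0055). The first 3 of these lie close to the threshold.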

How the data were processed

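The authors deposited 1 Salmon transcript table per library, with estimated counts (expected counts), TPM and effective lengths, per the file headers. The submitters' processing notes name bcl2fastq 2.20, FastQC, Salmon, DESeq2 and mm10. Salmon's version was not given in the sources used here, nor its strand setting, and the kit is directional per the labels' protocols. Deposited TPM sets each library to a fixed total, so it was used within libraries and for levels between genes. The exceptions are the summed TPM of Eif3j1 and Eif3j2 and the Eif4e TPM in KPP. These were set side by side across libraries without rescaling.

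Estimated counts were summed per gene by GENCODE M21 (139958 of 140825 transcripts matched by ID without version, the rest 0.412% to 0.685% of fragments) and rounded. edgeR 4.0.16 (R 4.3.3; limma 3.58.1) fitted 9 group means to 16096 genes kept by filterByExpr, with TMM (factors 0.83 to 1.32), 9 residual and 5.05 prior degrees of freedom, dispersion 0.054 and quasi-likelihood tests with Benjamini-Hochberg adjustment. CPM are TMM-scaled; fold changes are log2 with SE. With TPM in place of TMM-scaled CPM, the median log2 change of all genes moved by 0.44 in LLC, 0.32 in KPCML1, 0.019 in KPC, 0.44 in C26 and 0.091 in KPP. On simulated LLC counts over 16096 genes, 38 of 100 2-fold and 89 of 100 4-fold changes were called, and 1 of 15896 unchanged genes. The simulated spread followed the trend over genes alone, without spread particular to a gene, and changes were balanced up and down. In the real LLC comparison 13.6% of all genes were called, so these rates need not hold there.

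Members given in full are a fixed panel, the 5 called members of smallest p per direction in each tumour comparison and the mean effect, and the 5 of smallest p in the tests between models; others are examples of their role. Members, lists and this rule were chosen with earlier results of these data known. Alternatives were DESeq2 1.42.0, relative log expression factors, no filter, length-scaled counts, a replicate block, a fold threshold of 1.5, each experiment alone and leaving out each library. Counts over protein-coding transcripts only, and a crossed block for KPP, were added after seeing the data. The authors' deposited DESeq2 tables were not used. p-values measure the spread between these libraries.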

Additional observations from a re-analysis of the deposited data

Results flagged for a closer look

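The joint test of differences between the 5 models was passed by 5 of 64 members (7.81%), a share near that of all genes (8.3%). The count was 1 to 15 with a library left out. These were Eif5 (adjusted p = 0.0158), Eif1a (adjusted p = 0.0266), Eif2b1 (adjusted p = 0.0315), Eif4ebp1 (adjusted p = 0.0325) and Eif2ak2 (adjusted p = 0.0364). Eif5 ranged from 0.07 in LLC to 1.25 in KPC on the log2 scale, and Eif1a from 0.27 in KPCML1 to 1.37 in C26. Eif2b1 ranged from 0.25 in LLC to 1.59 in KPP, Eif4ebp1 from 1.54 in LLC to 3.96 in KPP and Eif2ak2 from -0.07 in LLC to -1.73 in KPP. The groups of 2 libraries are too small for a test of single outlying libraries.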

How the results depend on the processing

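For 122 calls of a member in a tumour comparison, each library left out and 6 alternatives (without the fold threshold and the experiments alone) gave 1220 values, of which 980 kept the call, 240 kept the direction without the call and 0 reversed. The number of members called moved by over 1.5 times as follows. In LLC (11) it was 18 by DESeq2, 2 with a fold threshold of 1.5 and 21 with the 4 libraries alone. In KPCML1 (14) it was 6 with the replicate block and 1 with the fold threshold. With that threshold it was 11 in KPC (32), 9 in C26 (26) and 19 for the mean effect (46). The test among models (5) gave 12 with relative log expression factors, 23 by DESeq2, 17 with no filter on low counts, 3 with length-scaled counts, 0 with the replicate block (286 of all genes passed it) and 11 over protein-coding transcripts. KPC against KPCML1 (2) gave 7 by DESeq2, 5 with no filter, 1 with the block, and 0 with the fold threshold or with the experiment alone. Apart from the 286 genes named, the numbers of all genes called under these settings are not given here. The cause was not tested.

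With 1 library left out the number ran from 2 to 9 in LLC, 1 to 12 in KPCML1, 12 to 29 in KPC, 10 to 23 in C26, 27 to 40 in KPP, 40 to 49 for the mean effect, 1 to 15 among models and 0 to 4 for KPC against KPCML1. A group then holds 1 library, assumed to vary like the others. The share of all genes called in each such fit is not given beside these numbers. Calls that held with each library left out were 2 of 11 in LLC, 1 of 14 in KPCML1, 12 of 32 in KPC, 9 of 26 in C26 and 26 of 39 in KPP.

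Libraries of the same replicate number did not deviate together (correlations of deviations -0.172 to 0.093), so the numbers were not shown to pair samples. With the replicate block 8 members were called in LLC, 26 in KPC, 19 in C26, 34 in KPP and 43 for the mean effect. With the KPP numbers crossed, 40 were called there. Groups hold 2 libraries each, and Eif4ebp3 and Eif5a2 have low counts.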
